A study of Homo sapiens with 6 samples.

Results

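Autophagy and lysosome genes were followed in U87 cells, an established human glioblastoma line, after exposure to a carborane-bearing amino acid. The members were chosen by symbol: 48 listed genes for the autophagy machinery, lysosomal hydrolases and membrane proteins, the V1 sector of the proton pump and the transcription factors TFEB, TFE3 and MITF. Of these, 46 had a row that carries their symbol alone, among 22411 genes measured. GLB1 and NPC2 were measured only on rows shared with another gene's symbol and are not analysed here. By role, 22 measured members build the autophagosome, 21 belong to the lysosome and 3 are the transcription factors.

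Of 6 arrays, 3 came from U87 cells kept with the compound at 1 mM for 48 h (treated) and 3 from U87 cells labelled as untreated (control). Both groups grew for 48 h beforehand in the same serum-containing medium with 1 mM pyruvate. The labels name no vehicle, and the compound is known here only by its description. The labels do not say whether the 3 replicates of a group came from separate cultures. The p-values thus rest on a spread between samples that may be technical.

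Autophagy is the route by which a cell wraps part of its cytoplasm in a double membrane and delivers it to the lysosome for breakdown. The ULK1 kinase complex starts the process, a lipid kinase complex with Beclin 1 marks the membrane, and a conjugation system resembling ubiquitination attaches LC3 and GABARAP proteins to it, where cargo receptors dock. Lysosomes hold acid hydrolases, kept acidic by a proton pump whose V1 sector lies in the cytosol. TFEB, TFE3 and MITF are related transcription factors that bind a CACGTG-centred element in many lysosome and autophagy genes, and starvation or lysosomal stress moves them into the nucleus.

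Signals are log2 values per transcript cluster, normalised across arrays by the authors, so a shift in total RNA per cell cannot be seen. Fewer cells making a transcript cannot be told apart from less transcript per cell. Array medians over the genes tested were 6.06 to 6.10, and a mean below the median gene (6.12) is called near background here. Values reached 19.46, above the 16 that a scanner can give, so the scale may be stretched and sizes of change are read on that scale only. Arrays of one group correlated at 0.998 across genes and arrays of different groups at 0.959 to 0.963. Of the glioblastoma markers, VIM and CD44 gave means of 16.67 and 14.01 in control cells, whereas the astrocyte genes GFAP, S100B and AQP4 were near background in both groups. These markers changed with the treatment: of 10 glial and mesenchymal markers, 6 fell (60.0%) and 1 rose (10.0%), with a median log2 change of -0.57. Of all genes tested, 21.6% were called lower and 24.0% higher by the same test, which is described below. Log2 changes were -2.86 for CHI3L1, -2.53 for SPARC, -1.89 for NES, -1.86 for SOX9, -0.70 for VIM and 0.44 for CD44. Their mean signal was 9.52 to 9.57 in control and 8.50 to 8.57 in treated arrays, and its part in the member results was not tested. Of 9 macrophage and microglia markers, 7 were near background, including PTPRC and CD14. None of the 9 was called higher and CSF1R was called lower (log2 change -0.51), and their mean signal was 6.22 to 6.27 in control and 6.18 to 6.25 in treated arrays. CD68, a lysosomal membrane protein often used as a macrophage marker, was at 16.10 in control and 16.11 in treated cells. All 4 measured melanocyte markers were near background. Of 4 endothelial markers, 3 were near background, and KDR fell by 2.18 from a control mean of 8.08. Of 4 epithelial markers, 3 were near background, among them EPCAM, which fell by 0.20. KRT8, at 8.25 in control cells, rose by 0.36.

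Treated cells had higher expression of most autophagosome members, while lysosome members moved both ways. Of 22 autophagosome members, 18 rose, 0 fell and 4 did not pass the test, and the median log2 change was 0.57. Of 21 lysosome members, 8 rose, 8 fell and 5 did not pass it, and the median was 0.0033. The test was limma over all genes, and calls are genes with an adjusted p (Benjamini-Hochberg) under 0.05. Over all genes tested, 24.0% were called higher and 21.6% lower, 45.6% in all, with a median log2 change of 0.01. The called-higher share was thus 81.8% in the autophagosome members and 38.1% in the lysosome members, and the called-lower share was 0.0% and 38.1%. These shares are descriptions without a set test, since the members were listed with results of these data known. Taken as whole lists, genes outside the members did not repeat this contrast. Other autophagy genes were called higher in 47.1% and lower in 23.5%, with a median of 0.04. That list also holds 7 measured fusion genes, a role without members, of which 0 were called higher. Among its other roles, 2 of 2 initiation, 3 of 4 nucleation and 4 of 5 membrane supply genes were called higher. For conjugation, ATG8 and cargo receptor genes it was 2 of 5, 1 of 2 and 4 of 9. Other lysosome genes were called higher in 46.7% and lower in 31.7%, with a median of 0.11. All 22 autophagosome members had a positive log2 change, from 0.0033 for BECN1 to 2.74 for MAP1LC3B, although the signs of BECN1 and ATG14 turned when arrays were centred or normalised again. Lysosome members ran from -1.11 for ATP6V1A to 1.45 for HEXA.

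**Figure D1:**
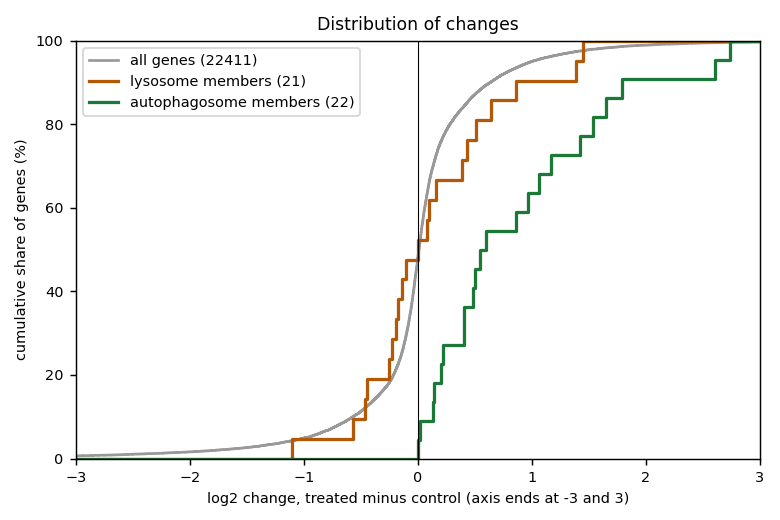
Cumulative share of genes (vertical axis, percent) against the log2 change of treated minus control (horizontal axis, ends at -3 and 3) for all 22411 genes, 21 lysosome members and 22 autophagosome members. The autophagosome curve lies to the right of 0 along its whole length, with a median of 0.57, and the lysosome curve crosses 0 at its middle.

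Among called genes, 11 members changed by 1 log2 unit or more, against 9.92% of all genes. Of these 11, 8 were autophagosome genes, all higher, 2 were lysosome genes that were higher (HEXA and CTSD), and ATP6V1A was lower. Over all genes, 4.98% rose by at least 1 and 4.94% fell by at least 1. In 42 of the 46 members the treated and control values did not overlap, against 53.5% of all genes. The mean signal over the autophagosome members was 10.19, 10.17 and 10.16 in control replicates 1, 2 and 3 and 11.10, 11.05 and 11.03 in the treated ones. Over the lysosome members it was 11.56, 11.53 and 11.51 in controls and 11.66, 11.64 and 11.63 in treated arrays. The largest SD within a group was 0.16 for an autophagosome gene and 0.13 for a lysosome gene. That autophagosome gene, GABARAPL2, was at 11.87 in treated replicate 1 and at 11.61 and 11.59 in treated replicates 2 and 3.

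**Figure D2:**
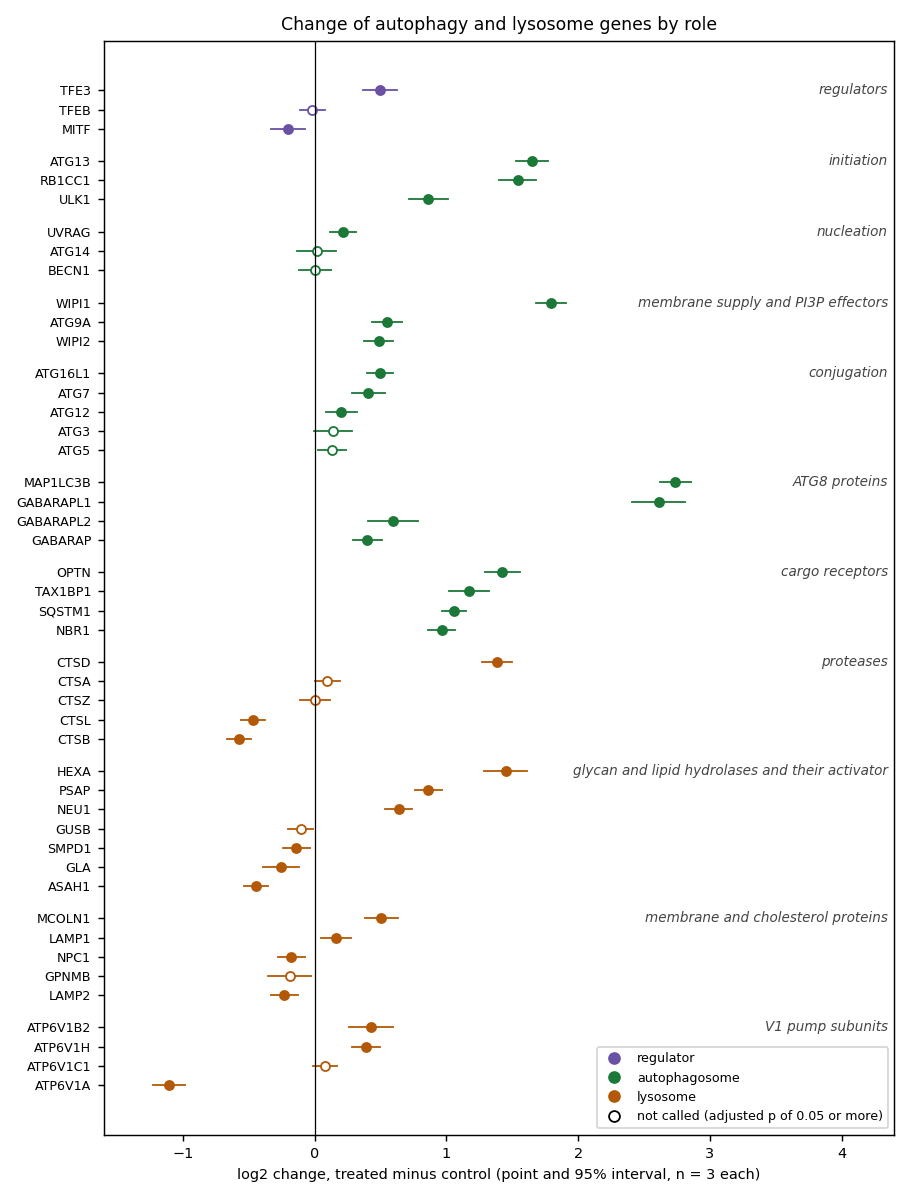
Log2 change of treated minus control (horizontal axis) for each of the 46 measured members, grouped by role, as a point with its 95% interval from limma (n = 3 each), filled where called. Every autophagosome point lies at or above 0, with MAP1LC3B at 2.74 and GABARAPL1 at 2.61 farthest right, whereas lysosome points lie on both sides, from ATP6V1A at -1.11 to HEXA at 1.45.

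The promoters of the members are shown because the TFE factors bind the CACGTG core, which is common in lysosomal genes. Promoters of 37 members, GLB1 and NPC2 included, were in the RefSeq table (GRCh38.p14), each from 250 bases before to 50 after the gene's start. ATP6V1A, ATP6V1B2, ATP6V1C1, ATP6V1H, ASAH1, HEXA, CTSB, UVRAG, PSAP, LAMP2 and RB1CC1 had no entry. CACGTG was found in 7 of the 37 promoters (18.9%), against 7.28% of 27305 promoters, and the longer TCACGTGA, which contains it, in 4 (10.8%), against 1.01%. The members are textbook targets of the TFE factors, so a higher share comes with the choice of genes and is no separate result. Both motifs read the same on either strand, so a single search covers both. A CACGTG lay in 5 of 14 lysosome promoters (LAMP1, MCOLN1, CTSA, CTSD and NEU1) and in 2 of 20 autophagosome promoters (ATG3 and ATG14). TCACGTGA lay in those of LAMP1, MCOLN1, CTSA and ATG3. The stretches below cover the 150 bases before the start, 5′ to 3′ on the gene's strand, with CACGTG or TCACGTGA in capitals, for the 5 lysosome genes that hold the core and for the autophagosome genes with the largest rises, which hold none in this window.
LAMP1 (chr13:113297089-113297238, plus strand): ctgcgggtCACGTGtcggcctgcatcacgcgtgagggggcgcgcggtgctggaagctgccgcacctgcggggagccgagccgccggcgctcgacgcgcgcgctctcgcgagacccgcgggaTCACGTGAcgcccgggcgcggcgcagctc
MCOLN1 (chr19:7522474-7522623, plus strand): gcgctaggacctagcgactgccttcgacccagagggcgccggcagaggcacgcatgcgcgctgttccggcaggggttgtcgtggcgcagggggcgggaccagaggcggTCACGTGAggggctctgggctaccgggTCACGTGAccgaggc
CTSA (chr20:45891185-45891334, plus strand): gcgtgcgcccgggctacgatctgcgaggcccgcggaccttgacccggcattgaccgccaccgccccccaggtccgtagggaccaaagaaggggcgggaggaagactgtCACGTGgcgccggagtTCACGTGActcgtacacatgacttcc
CTSD (chr11:1763928-1764077, minus strand): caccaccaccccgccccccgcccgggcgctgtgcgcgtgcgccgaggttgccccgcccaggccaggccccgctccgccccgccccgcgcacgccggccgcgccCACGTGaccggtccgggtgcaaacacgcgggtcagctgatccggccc
NEU1 (chr6:31862822-31862971, minus strand): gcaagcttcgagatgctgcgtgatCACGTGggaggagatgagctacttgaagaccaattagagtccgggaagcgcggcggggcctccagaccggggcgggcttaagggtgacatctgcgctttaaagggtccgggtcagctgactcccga
MAP1LC3B (chr16:87392186-87392335, plus strand): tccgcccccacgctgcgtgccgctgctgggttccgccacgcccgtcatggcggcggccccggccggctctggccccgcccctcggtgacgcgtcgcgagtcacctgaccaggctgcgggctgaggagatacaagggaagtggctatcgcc
GABARAPL1 (chr12:10212727-10212876, plus strand): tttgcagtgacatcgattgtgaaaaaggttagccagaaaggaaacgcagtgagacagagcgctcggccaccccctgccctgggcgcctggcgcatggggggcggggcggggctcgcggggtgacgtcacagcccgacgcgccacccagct

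LAMP1 held the most copies, with 6 CACGTG cores beginning at -192, -176, -159, -142, -28 and -1 from the start, of which those at -142 and -28 lie whole in the stretch shown. MCOLN1 held TCACGTGA at -42 and -15. The CACGTG cores of CTSA began at -42 and -25, and the single cores of CTSD and NEU1 at -47 and -126. Among these 5 lysosome genes, CTSD rose by 1.38, NEU1 by 0.64, MCOLN1 by 0.51 and LAMP1 by 0.16 on the log2 scale, and CTSA, at 0.10, was not called. The autophagosome genes with the core, ATG3 and ATG14, were not called, at 0.14 and 0.02. A match is a run of letters and not a shown binding site, and its absence says only that these letters are not in this window.

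The transcripts of the 3 TFE factors differed in direction. TFE3 gave log2 signals of 10.34, 10.43 and 10.35 in control replicates 1, 2 and 3 and 10.89, 10.78 and 10.93 in the treated ones. All treated values lay above all control values, and the gene rose by 0.49 (SE 0.05, adjusted p = 2.30e-04 by limma). TFEB was near background on every array, at 5.37, 5.39 and 5.34 in controls and 5.38, 5.31 and 5.36 in treated cells, with overlapping groups. Its log2 change of -0.02 was not called (95% interval -0.11 to 0.08), and at this signal a change would be hard to see. MITF was at 7.62, 7.71 and 7.75 in controls and 7.56, 7.43 and 7.49 after treatment. These groups did not overlap, and MITF fell by 0.20 (adjusted p = 0.0216). That call was lost without treated replicate 2, treated replicate 3, control replicate 2 or control replicate 3, with adjusted p-values between 0.0553 and 0.0739. These factors are controlled largely by where the protein sits in the cell, which an array does not measure.

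The 3 members of the ULK1 initiation complex rose, as did its subunit gene ATG101 by 1.00 and the related kinase gene ULK2 by 0.60, both outside the members. Of all genes tested, 24.0% were called higher. ATG13, the regulatory subunit that mTORC1 phosphorylates, was at 11.21, 11.18 and 11.21 in controls and 12.93, 12.77 and 12.85 in treated cells. The rise of 1.65 (SE 0.05, adjusted p = 4.58e-07) was far larger than the spread within either group. RB1CC1, also called FIP200, is the scaffold of the complex. It was measured at 11.34, 11.28 and 11.21 in controls and 12.91, 12.78 and 12.76 in treated cells, without overlap, and rose by 1.54 (SE 0.06). ULK1, the kinase itself, rose by 0.86 (SE 0.06, adjusted p = 2.22e-05).

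The Beclin 1 lipid kinase complex makes the phosphoinositide PI3P on the growing membrane, and its 3 members had a median log2 change of 0.02. Of 4 further measured genes of this role, NRBF2, a subunit of the complex, rose by 1.57, AMBRA1 by 0.37 and PIK3C3, the kinase, by 0.20, and PIK3R4 fell by 0.37. BECN1, the Beclin 1 gene, had a log2 change of 0.0033 with a 95% interval of -0.12 to 0.13. ATG14, which directs the complex to the autophagosome, had a change of 0.02 (95% interval -0.13 to 0.17). The treated and control values of both genes overlapped, and neither was called. UVRAG, the alternative partner found in endosomal complexes, rose by 0.22 (adjusted p = 0.00364).

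WIPI1 had the largest rise of the 3 members that supply membrane or read PI3P. WIPI1 binds PI3P on the forming membrane and is used as a marker of autophagosome formation. Its signal was 13.54, 13.57 and 13.52 in controls and 15.38, 15.37 and 15.26 in treated cells. The groups were widely separated, with a rise of 1.79 (SE 0.05, adjusted p = 2.32e-07). WIPI2, its relative that recruits ATG16L1, rose by 0.49, and ATG9A, a transmembrane protein of the vesicles that seed the membrane, by 0.55.

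The 5 conjugation members had log2 changes of 0.50 or less. ATG16L1, which places the conjugation enzymes on the membrane, rose by 0.50, and ATG7, the activating enzyme shared by both conjugation reactions, by 0.41. ATG12, the ubiquitin-like protein that is linked to ATG5, rose by 0.20 (adjusted p = 0.0125), but with repeated quantile normalization its change was 0.12 and not called (adjusted p = 0.105). ATG5 had a log2 change of 0.13 (adjusted p = 0.0539) and ATG3, which hands LC3 to its lipid, one of 0.14 (adjusted p = 0.112). Neither passed the threshold, although in both genes all treated values lay above all control values. The 5 genes ranged from 0.13 to 0.50, all below the smallest change among the 4 cargo receptor members. This ordering concerns the members alone. Of 5 conjugation genes measured outside them, 2 were called higher (40.0%) and 1 lower (20.0%), with a median of -0.07. The shares of all genes were 24.0% and 21.6%. The 9 cargo receptors measured outside the members had a median of 0.07.

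The ATG8 genes encode the small proteins that are attached to the autophagosome membrane. The 4 members rose, against 24.0% of all genes called higher, but by very different amounts. MAP1LC3B, the gene of LC3B, was at 11.07, 11.02 and 11.02 in controls and 13.71, 13.76 and 13.85 in treated cells. This was the largest change of any member, a rise of 2.74 (SE 0.05, adjusted p = 5.26e-08). GABARAPL1 was at 8.16, 8.04 and 8.06 in controls and 10.87, 10.65 and 10.57 in treated cells, a rise of 2.61 (SE 0.08, adjusted p = 5.09e-07). The treated arrays of both genes lay more than 2 log2 units above every control array. GABARAPL2 was measured at 11.11, 11.05 and 11.12 in controls and 11.87, 11.61 and 11.59 in treated cells, a rise of 0.60 (SE 0.08). For GABARAP the values were 13.98, 14.06 and 13.98 in controls and 14.44, 14.36 and 14.42 in treated cells, a rise of 0.40 (SE 0.05). The 95% intervals of MAP1LC3B (2.62 to 2.85) and GABARAPL1 (2.41 to 2.81) did not reach those of GABARAPL2 (0.41 to 0.79) and GABARAP (0.29 to 0.51).

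Of the other ATG8 genes measured, MAP1LC3C was not called (log2 change -0.07, adjusted p = 0.485). Its means of 5.66 in control and 5.59 in treated cells were near background. MAP1LC3A rose by 0.56 from a control mean of 5.68, also near background. Close copies of these genes could share probe signal, so the values of single family members are uncertain. MAP1LC3B2, a near-identical copy of MAP1LC3B, rose by 1.84, from a control mean of 8.48 to 10.33. GABARAPL3, a copy of GABARAPL1, rose by 0.90, from a control mean of 6.10 near background. Both copies were named after their values were seen, and the part of shared probe signal was not tested.

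Cargo receptors link material marked for breakdown to LC3 and GABARAP proteins, and the 4 members rose. Receptors outside the members moved both ways, against 24.0% of all genes called higher and 21.6% lower. Of 9 such receptors measured, 4 rose (44.4%), 4 fell (44.4%) and 1 was not called, with a median of 0.07. Their falls were in BNIP3, a mitophagy receptor induced by hypoxia, by 1.11, RETREG1 by 0.45, FUNDC1 by 0.26 and TEX264 by 0.19. SQSTM1, the gene of p62, was at 9.87, 9.87 and 9.83 in controls and 10.94, 10.90 and 10.91 in treated cells, a rise of 1.06 (SE 0.04, adjusted p = 8.98e-07). OPTN, a receptor for damaged mitochondria and bacteria, was at 9.68, 9.65 and 9.55 in controls and 11.06, 11.11 and 10.98 after treatment, a rise of 1.42 (SE 0.06). TAX1BP1, a receptor for protein aggregates and ferritin, was at 12.85, 12.68 and 12.71 in controls and 13.99, 13.92 and 13.84 after treatment, a rise of 1.17 (SE 0.06). None of these genes had overlapping groups. NBR1, which works beside p62, rose by 0.96 (SE 0.04), so the 4 members lay between 0.96 and 1.42.

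**Figure D3:**
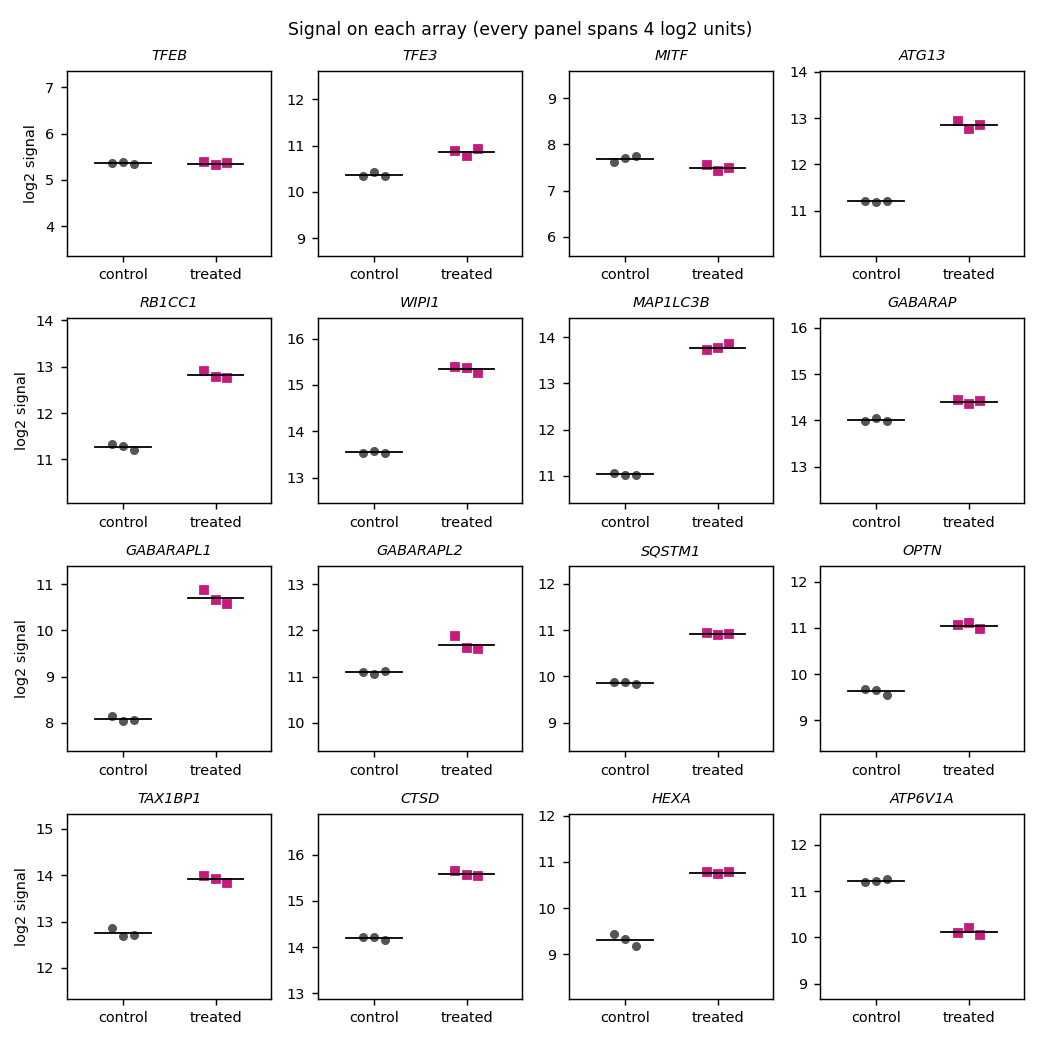
Log2 signal on each of the 6 arrays for the TFE factors, the ATG8 genes and all called members with a change of at least 1, with control values as circles, treated values as squares and the group mean as a line; each panel spans 4 log2 units. Treated and control points overlap in the TFEB panel, are far apart in MAP1LC3B and GABARAPL1, and lie the other way round in ATP6V1A.

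Lysosomal proteases split in direction. CTSD, the aspartic protease cathepsin D, was at 14.21, 14.21 and 14.16 in controls and 15.65, 15.55 and 15.53 in treated cells. Every treated array was above every control, a rise of 1.38 (SE 0.05, adjusted p = 7.27e-07). The cysteine proteases cathepsin B and cathepsin L moved the other way: CTSB fell by 0.57 (adjusted p = 1.78e-05) and CTSL by 0.47 (adjusted p = 4.25e-05). CTSA, a carboxypeptidase that also protects other lysosomal enzymes, had a log2 change of 0.10 (adjusted p = 0.0949). CTSZ was near background, at 5.87 to 5.90 in controls and 5.81 to 5.95 in treated cells, and was not called.

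Hydrolases of glycans and lipids split as well. Of the 7 measured, PSAP included, 3 rose and 3 fell (42.9% each), against 24.0% and 21.6% of all genes. HEXA, the alpha subunit of the hexosaminidase that degrades GM2 ganglioside, was at 9.44, 9.33 and 9.18 in controls and 10.78, 10.74 and 10.78 in treated cells. It rose by 1.45 (SE 0.07, adjusted p = 3.12e-06), the largest rise of a lysosome member. PSAP, whose product is cut into the saposins that help these enzymes reach their lipids, rose by 0.86, and the sialidase gene NEU1 by 0.64. ASAH1, the acid ceramidase, fell by 0.45 and GLA, the alpha-galactosidase, by 0.26. SMPD1, the acid sphingomyelinase, fell by 0.14 (adjusted p = 0.0331), a call that was lost when any 1 of the 6 arrays was left out (adjusted p = 0.0515 to 0.104). GUSB, the beta-glucuronidase, did not pass the test, at -0.11 (adjusted p = 0.0755).

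Of 5 measured membrane members of the lysosome, 2 rose, 2 fell (40.0% each) and 1 was not called, with log2 changes from -0.23 to 0.51. Over all genes, 24.0% were called higher and 21.6% lower. MCOLN1, the calcium channel TRPML1, rose by 0.51 (SE 0.05, adjusted p = 1.61e-04). LAMP2, a structural glycoprotein of the lysosomal membrane and a receptor for chaperone-mediated autophagy, fell by 0.23, and NPC1, which exports cholesterol, fell by 0.18. LAMP1, the other main glycoprotein, rose by 0.16 (adjusted p = 0.0304), but the call was lost without treated replicate 1, 2 or 3 and without control replicate 1 or 3 (adjusted p = 0.0702 to 0.0941), when arrays were centred on their medians (adjusted p = 0.0680) and with the replicate number as a block (adjusted p = 0.0654). With repeated quantile normalization its change was 0.083 (adjusted p = 0.235). GPNMB, a glycoprotein that responds to lysosomal stress, had a log2 change of -0.19 (adjusted p = 0.0574). No other membrane member changed by as much as MCOLN1 in either direction.

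The V1 pump subunits did not move together. ATP6V1A, the catalytic subunit that hydrolyses ATP, was at 11.20, 11.22 and 11.26 in controls and 10.10, 10.20 and 10.06 in treated cells. The groups were separated by a fall of 1.11 (SE 0.05, adjusted p = 2.46e-06), the largest fall of any member. ATP6V1B2, its partner in the catalytic ring, rose by 0.43 (SE 0.07), and ATP6V1H, a regulatory subunit, by 0.39 (SE 0.05). ATP6V1C1, which helps join V1 to the membrane sector, was not called, at 0.08 (95% interval -0.01 to 0.17).

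Other genes of the pathway, listed by role beside the members, were read from the same fit. Of 34 measured autophagy genes outside the members, 16 rose and 8 fell, while 10 did not pass the test, and the median log2 change was 0.04. The called-higher share was 47.1%, against 24.0% of all genes and 81.8% of the autophagosome members, and the called-lower share of 23.5% was near the 21.6% of all genes. TMEM41B, a lipid scramblase needed for autophagosome growth, rose by 2.31, from a control mean of 10.19 to 12.50. WDR45, a PI3P-binding relative of the WIPI proteins, rose by 2.24, NRBF2 by 1.57 and CALCOCO2, the cargo receptor NDP52, by 1.09. The largest falls were in BNIP3 by 1.11, EPG5, a tether for fusion with lysosomes, by 0.92, the LC3 protease gene ATG4C by 0.56 and the lipid transfer protein gene ATG2B by 0.49. The 34 genes include 7 measured genes for fusion with the lysosome, a role without members. Of these 7, EPG5 was the one called, a called-lower share of 14.3% against 21.6% of all genes. None of the 7 was called higher, against 24.0% of all genes. RAB7A, the GTPase of late endosomes, was at 16.95 in control and 16.96 in treated cells, and the SNARE gene STX17 had a log2 change of -0.01.

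Lysosome genes outside the members also moved both ways. Of 60 measured, 28 rose and 19 fell, while 13 did not pass the test, and the median was 0.11. The called-higher share was 46.7% and the called-lower share 31.7%, against 24.0% and 21.6% of all genes. Proteases showed the widest spread, with 4 higher, 4 lower and 2 not called of 10. CTSS, the elastin-cleaving cathepsin S, was at 9.55, 9.48 and 9.24 in controls and 12.27, 12.29 and 12.22 in treated cells, a rise of 2.84 (SE 0.08, adjusted p = 3.43e-07). CTSK, the collagen-cleaving cathepsin K, went the other way, from 14.44, 14.42 and 14.24 in controls to 11.43, 11.50 and 11.29, a log2 change of -2.96 (SE 0.08, adjusted p = 2.13e-07). Thus 2 cysteine cathepsins had the largest rise and the largest fall of this list. CTSF rose by 1.46 from a control signal near background, and TPP1, a peptidase lost in a neuronal ceroid lipofuscinosis, by 1.22. GM2A, the activator that presents GM2 to hexosaminidase, fell by 1.39, while HEXA rose. PPT1, which removes palmitate from proteins, fell by 1.20.

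Genes for delivery of enzymes to the lysosome moved apart. IGF2R, the large mannose 6-phosphate receptor, rose by 1.30 (SE 0.05), whereas GNPTAB, which makes the mannose 6-phosphate tag, fell by 1.40 (SE 0.05), and M6PR, the small receptor, fell by 0.21. Membrane genes of the lysosome outside the members were called higher in 10 of 16 (62.5%) and lower in 4, against 24.0% and 21.6% of all genes. This list includes GRN, the gene of progranulin, which is a soluble protein. In this list the cystine exporter CTNS rose by 0.92, CLN3 by 0.78 and GRN by 0.65, and LAPTM4B fell by 1.02. The remaining V1 subunits had 3 higher (33.3%), 2 lower (22.2%) and 4 not called of 9, the lower share near that of all genes. Of the 4 not called, 3 were near background. ATP6V1G1, for example, rose by 0.70 and ATP6V1D fell by 0.62. Of 6 measured genes that act on the TFE factors, FNIP1, a partner of folliculin, rose by 0.98 and YWHAZ, a 14-3-3 protein, fell by 0.41. The other 4 were not called, and 2 of these 4 were near background, where a change would be hard to see.

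**Figure D4:**
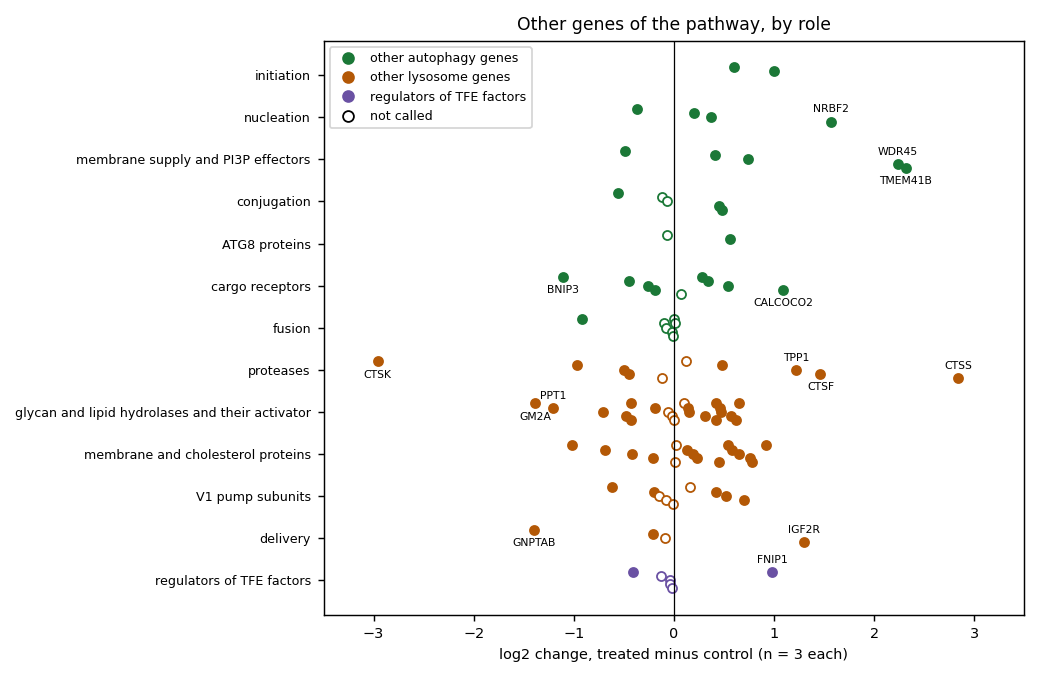
Log2 change of treated minus control (horizontal axis, n = 3 each) for the measured pathway genes outside the members, by role (vertical axis), filled where called. Initiation genes lie to the right of 0, fusion genes close to 0 apart from EPG5 at -0.92, and lysosomal proteases spread from CTSK at -2.96 to CTSS at 2.84.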

How the data were processed

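Total RNA of 6 U87 samples was hybridised to Affymetrix whole-transcript arrays. The deposited values are log2 signals that the authors obtained by RMA. Per the submitters' processing notes the software was Transcriptome Analysis Console 4.0.1.36. No genome build is stated in the labels, and the table holds no detection calls. Row names came from the platform annotation, updated to RefSeq symbols (GRCh38.p14). Of 67528 rows, 23781 had 1 symbol, and the highest-mean row per gene was kept (22411 genes). NEU1, the member with several rows, gave near-identical values on all 8.

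The comparison of treated with control used limma 3.58.1 (lmFit, eBayes, 4 residual and 2.75 prior degrees of freedom) under R 4.3.3, over all genes and adjusted by Benjamini-Hochberg. The fit was also run on simulated data. The members, roles and pathway lists were chosen with earlier results of these data known. Array values are printed for called members with a log2 change of at least 1, the TFE factors and the ATG8 genes. For each pathway list the 4 largest called rises and falls without overlap are named, and ATG101, ULK2, AMBRA1, PIK3C3, PIK3R4, MAP1LC3A, MAP1LC3C, RETREG1, FUNDC1, TEX264, RAB7A, STX17, CTNS, CLN3, GRN, LAPTM4B, M6PR, ATP6V1G1, ATP6V1D and CD68 were added after their values were seen. Alternatives were another centring, repeated quantile normalization, a replicate block, removal of dim genes, all rows, averaged rows, trend and robust eBayes, array weights, a scale compressed to 16, a minimum change of 1, protein-coding genes alone and leaving out each array. Same-numbered treated and control arrays did not deviate together (correlations -0.08, 0.04 and -0.05), so the numbers were not taken to pair them. The number of arrays limits the precision. Figures were drawn with matplotlib 3.10.9.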

Additional observations from a re-analysis of the deposited data

How the results depend on the processing

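Over 16 alternatives other than the minimum change, 34 of the 46 measured members kept their sign and their side of the threshold and 12 did not. MITF, SMPD1, LAMP1 and ATG12 lost their calls in 5, 7, 8 and 1 of these, and ATG5, CTSA, GUSB and GPNMB gained one in 5, 2, 2 and 6. Among the 16, the compressed scale multiplied every value by a constant, so it could change no sign and no call. Requiring a log2 change of at least 1 left 10 members higher and 1 lower, 8 autophagosome members higher, 2 lysosome members higher and 1 lower, 5 other autophagy genes higher and 1 lower, 4 other lysosome genes higher and 5 lower, and 1116 genes higher and 1108 lower of all genes. The autophagosome median of 0.57 became 0.50 with repeated quantile normalization, 0.47 on the compressed scale and 0.51 to 0.61 with 1 array left out. The lysosome median of 0.0033 became -0.02 with centred arrays and -0.03 to 0.04 with 1 array left out. Over all genes, the calls of 5369 higher and 4843 lower became 4880 and 5301 with repeated quantile normalization. With centred arrays they became 4958 and 5087. Uncalled changes close to 0 turned sign with centred arrays and repeated quantile normalization: BECN1 to -0.02 and -0.068, ATG14 to -0.0067 and -0.043, and CTSZ to -0.02 and -0.01. With 1 array left out, BECN1 ranged from -0.028 to 0.042, ATG14 from -0.032 to 0.048, CTSZ from -0.03 to 0.04 and TFEB from -0.032 to 0.0033. With the replicate number as a block, 26 members were higher and 7 lower, and 18 autophagosome members were higher and 0 lower. The block ended the calls of MITF, SMPD1 and LAMP1 (adjusted p = 0.0607, 0.0809 and 0.0654). Causes were not tested. Signals near background limit what can be said of TFEB and CTSZ.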
